A study of Rattus norvegicus with 4 samples.

Results

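The genes described here are the Wnt ligands, their Frizzled (Fzd) receptors, the secreted antagonists of the Sfrp and Dkk families and the R-spondins (Rspo), as they appear in a map of histone H3 lysine 27 trimethylation (H3K27me3) from rat sciatic nerve. Members were taken by gene symbol from the list of H3K27me3 peaks, which assigns every peak to the gene of the nearest transcription start site (TSS). The peaks named 37 such genes out of 10647 genes in all, of which 18 were ligands, 9 receptors, 7 antagonists and 3 R-spondins. Symbols of the same families that no peak names were Wnt2, Fzd7, Dkk4 and Rspo4, and whether the annotation behind the list contains them is not known here.

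The nerves came from male Sprague Dawley rats aged 42 postnatal days (P42). The nerve studied was the sham-operated one, which received a skin incision alone, and the opposite sciatic nerve of these animals had been cut 1 day earlier. There were 2 H3K27me3 libraries and 2 libraries of input chromatin, prepared by micrococcal nuclease digestion (MNase-ChIP). The H3K27me3 peaks were deposited as a single combined list of 129550 peaks on the assembly rn5, with no value per library, so no replicate error can be given and no difference between genes or classes was tested. How many animals entered each library is not given in the sources used here.

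Wnt proteins are secreted, lipid-modified ligands that bind Frizzled receptors, which pass through the membrane 7 times, together with the co-receptors Lrp5 and Lrp6. In the canonical branch this stabilises beta-catenin, which acts with Tcf and Lef factors in the nucleus, and other branches control cell polarity and movement. Sfrp proteins bind Wnt ligands outside the cell, Dkk proteins such as Dkk1 block the co-receptors, and R-spondins amplify the signal through Lgr receptors. H3K27me3 is placed by Polycomb repressive complex 2 and marks silenced developmental genes. In the embryo, Wnt signals from the dorsal neural tube act on the neural crest, from which Schwann cells derive.

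Nearly all members carried H3K27me3 at the promoter, but with very different extents. A promoter peak was counted where a peak assigned to the gene reached within 1000 bp of the TSS. By this measure 17 of 18 ligands, 8 of 9 receptors, 7 of 7 antagonists and 3 of 3 R-spondins had a promoter peak, together 35 of 37. Of all genes named in the peak list 38.4% had one, and 17.2% of the 23154 protein-coding genes of the rat gene table did. The 2 members without were Wnt5b and Fzd8. Against the 41 genes of these families in the rat gene table, the count was 35 of 41. A peak from whole nerve does not show which of its cell types carried the mark, nor whether many cells carried it or few.

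The classes differed in how broad the promoter peaks were. For each gene the promoter peak with the highest score was taken, the score being the authors' own value per peak without a stated scale. The ligand peaks had a median width of 5291 bp (263 to 15689 bp) and a median score of 229 (7.84 to 763.4). The receptor peaks had a median width of 1294 bp (237 to 2551 bp) and a median score of 36.4 (5.57 to 87.7). Antagonists lay between, with 3869 bp (665 to 7951 bp) and a score of 127 (18.4 to 397.3), and the 3 R-spondins had 5122 bp (1762 to 5246 bp) and 205.4 (58.8 to 235.6). Over all 4088 genes with a promoter peak the medians were 1335 bp and 40.6, so the receptors sat near the middle of the list and the ligands well above it. Of the 17 ligands 15 scored higher than Fzd9, the highest receptor, and the ranges overlapped through Wnt8a and Wnt9a. Peaks of at least 5000 bp were found at 10 ligands, 2 R-spondins, 1 antagonist and no receptor, against 13.8% of all genes with a promoter peak.

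**Figure D1:**
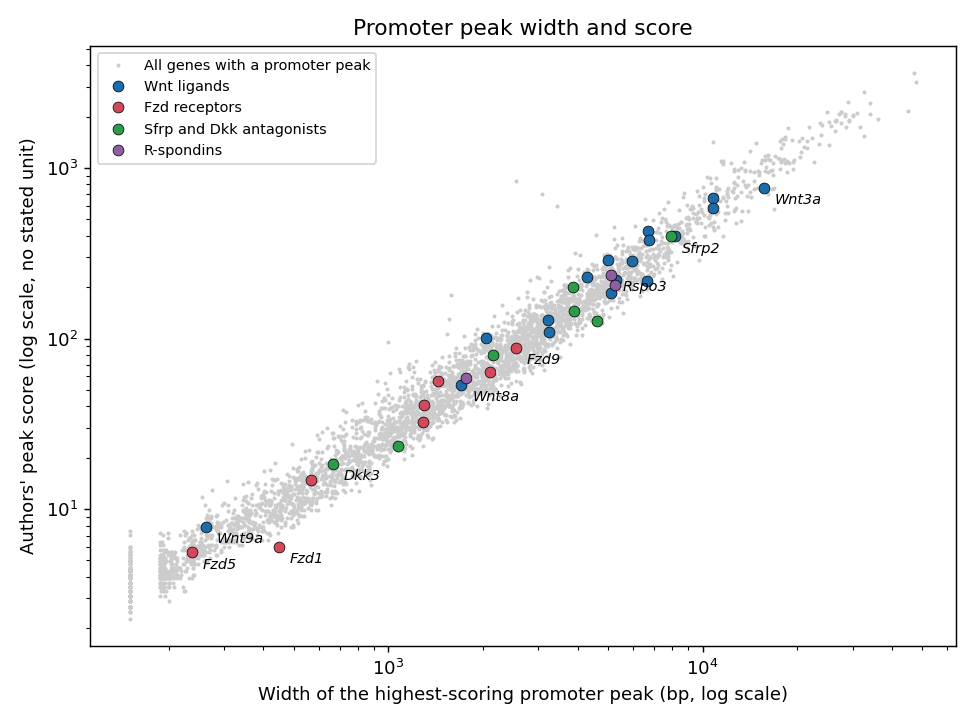
Width (x axis, bp) and the authors' score (y axis, no stated unit) of the highest-scoring promoter peak, both on log axes, for the 35 members (coloured by class) and for all 4088 genes with a promoter peak (grey). Ligands fill the upper part up to Wnt3a at 15689 bp and 763.4, and the Fzd receptors end at Fzd9 with 2551 bp and 87.7.

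Width and score rose together across the list, so the score per kb of peak was compared as well. It had a median of 48.4 in ligands (29.8 to 63.3), 28.2 in receptors (13.3 to 39.1), 37.0 in antagonists (21.9 to 51.6) and 39.2 in R-spondins (33.4 to 46.0). The median of all genes with a promoter peak was 30.0. Ligand and receptor ranges overlapped on this scale, and the receptors again lay close to the list as a whole. Within 10 kb on either side of the TSS, H3K27me3 peaks covered a median of 53.2% of the sequence at 18 ligands and 14% at the 8 receptors whose TSS position could be derived, with 28.3% at antagonists and 45.4% at R-spondins. Over the 9251 genes named in the peak list whose TSS position could be derived, with or without a promoter peak, that median was 5.28%. All peaks in a window enter this share, whatever gene they are assigned to. A peak can therefore count for both ligands of a neighbouring pair, as the Wnt3a peak does for Wnt9a, so the ligand windows are not all separate.

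Stretches of DNA are shown around the RefSeq start sites of 5 members. These are the highest-scoring member of each class with a sequence and the lowest-scoring ligand, Wnt9a. Wnt9a has a role in joints and lies next to Wnt3a. Each stretch runs from 250 bases before to 50 bases after the RefSeq start in the assembly GRCr8, 5′ to 3′ along the gene. Capitals mark CpG dinucleotides, which are frequent in promoters that Polycomb complexes bind. The peaks are on rn5, so the sequences are tied to them by the gene name and not by position. A RefSeq start shown here need not be the TSS from which the peak distances were measured. The Wnt3a window is chr10:44577870-44578169 (minus strand), and those of Wnt9a, Fzd9, Sfrp2 and Rspo3, all on the plus strand, are chr10:44593441-44593740, chr12:27063390-27063689, chr2:171387286-171387585 and chr1:30112279-30112578.
Wnt3a: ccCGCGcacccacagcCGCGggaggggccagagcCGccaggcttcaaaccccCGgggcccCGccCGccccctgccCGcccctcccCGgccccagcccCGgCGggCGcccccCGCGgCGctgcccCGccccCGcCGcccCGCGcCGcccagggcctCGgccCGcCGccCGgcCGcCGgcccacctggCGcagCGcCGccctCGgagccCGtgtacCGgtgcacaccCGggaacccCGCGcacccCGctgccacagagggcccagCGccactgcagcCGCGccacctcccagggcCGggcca
Wnt9a: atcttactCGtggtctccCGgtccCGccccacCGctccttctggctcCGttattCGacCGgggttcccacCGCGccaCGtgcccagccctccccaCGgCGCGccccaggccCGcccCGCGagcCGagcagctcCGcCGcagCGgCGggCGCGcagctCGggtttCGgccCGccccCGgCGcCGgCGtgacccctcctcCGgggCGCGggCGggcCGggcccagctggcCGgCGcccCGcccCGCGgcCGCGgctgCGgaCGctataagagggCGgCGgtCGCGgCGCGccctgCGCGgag
Fzd9: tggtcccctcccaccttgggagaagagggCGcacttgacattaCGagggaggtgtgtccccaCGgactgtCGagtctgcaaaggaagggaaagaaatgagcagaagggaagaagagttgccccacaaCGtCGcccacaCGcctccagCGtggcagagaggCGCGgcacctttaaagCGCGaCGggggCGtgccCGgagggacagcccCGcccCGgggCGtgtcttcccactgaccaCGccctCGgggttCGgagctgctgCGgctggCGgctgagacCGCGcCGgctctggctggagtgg
Sfrp2: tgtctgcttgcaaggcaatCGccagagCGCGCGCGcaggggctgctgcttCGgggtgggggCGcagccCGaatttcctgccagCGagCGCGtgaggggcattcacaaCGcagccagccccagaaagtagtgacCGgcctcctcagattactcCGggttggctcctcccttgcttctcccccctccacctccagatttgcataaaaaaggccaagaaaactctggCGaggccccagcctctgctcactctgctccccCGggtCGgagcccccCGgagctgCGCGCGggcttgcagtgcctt
Rspo3: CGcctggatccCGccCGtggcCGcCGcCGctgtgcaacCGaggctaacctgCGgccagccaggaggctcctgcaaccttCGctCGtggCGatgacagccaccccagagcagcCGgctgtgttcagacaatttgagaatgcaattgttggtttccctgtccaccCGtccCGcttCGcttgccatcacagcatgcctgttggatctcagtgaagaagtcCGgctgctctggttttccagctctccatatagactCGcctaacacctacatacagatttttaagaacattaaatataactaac

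CpG content did not follow the order of the scores in these windows. Wnt3a, with the highest score, had 42 CpG and a ratio of observed to expected CpG of 0.831, and Wnt9a, with the lowest ligand score, had 52 and 1.08. Fzd9 had 26 CpG, Sfrp2 had 21 and Rspo3 had 17. Among the other ligands Wnt4 had 53 CpG with a score of 100.7, while Wnt8b had 6 with a score of 396.7. RefSeq windows were found for 16 of the 19 ligand genes of the table. They had a median of 29 CpG (6 to 53) and a median GC content of 70.0%. The medians were 12 CpG and 55.3% in the windows of 19005 protein-coding genes, and 17 CpG and 61.3% in those of 2837 genes with a promoter peak. The 7 receptor windows had 26 CpG and 66.7%. The motif TATAAA, on either strand, was in 0 of the 16 ligand windows and 0 of the 7 receptor windows. It was in 13.1% of the windows of protein-coding genes and 10.3% of those of genes with a promoter peak. Over all 41 genes only 28 had a window (68.3%), so a comparison of sequence between the classes is void.

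Among the ligands, the highest-scoring peaks lay over Wnt3a, Wnt1, Wnt16 and Wnt10b. The 95% intervals printed with scores are exact Poisson intervals that assume a sequenced tag per score step of 0.2063, and no other error is in them. Wnt3a, a canonical ligand of the dorsal neural tube and the tail bud, lay under 15689 bp of H3K27me3 (chromosome 10, 45390734 to 45406423; score 763.4, interval 739 to 788), centred 4895 bp upstream of its TSS. Wnt1, a canonical ligand of the midbrain and the dorsal neural tube, had 10765 bp (114973060 to 114983825) and 663.6 (641 to 687), centred in its 3' UTR (exon 4 of 4). Wnt16 had 10766 bp (chromosome 4, 49158750 to 49169516) and 581.1 (560 to 603), centred in intron 3 of 3. Wnt10b, known as a brake on fat cell formation, had 6720 bp (114957564 to 114964284) and 425.1 (407 to 444), centred in exon 5 of 6. In rn5 both Wnt1 and Wnt10b sit on chromosome X, whereas GRCr8 has them on chromosome 7. These 4 ranked 121, 153, 169 and 250 by score among the 4088 genes with a promoter peak.

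The other ligands spread over a wide range of scores. Wnt8b, a forebrain ligand, had 396.7 (8195 bp), Wnt3, which is needed for the body axis and limbs, 377.3 (6729 bp), and Wnt9b, a kidney ligand, 288 (4984 bp). Wnt10a, known from teeth and skin, had 285.3 (5979 bp). Wnt7b had 229 (4300 bp), Wnt7a, a ligand of the dorsal limb, 221.7 (5291 bp), and Wnt6 had 216.8 (6657 bp). Wnt5a, the best known ligand of the non-canonical branch, had 186.1 (5094 bp), and Wnt11, which acts in cell movement during gastrulation, had 129.1 (3209 bp). Wnt2b had 108.7 (3252 bp), Wnt4, needed in kidney and ovary, 100.7 (2045 bp), and Wnt8a, an early embryonic ligand, 53.4 (1707 bp). In all, 13 of the 17 ligands fell in the top 25% of genes with a promoter peak by score, and only Wnt9a was below the median. Wnt5b, a close relative of Wnt5a, was named by 2 peaks of the smallest width, 150 bp, with scores of 5.36 and 3.30, centred 1690 and 2466 bp upstream of its TSS. Peaks covered 1.5% of the 10 kb on either side of the Wnt5b TSS and 64.2% of that around Wnt5a.

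**Figure D2:**
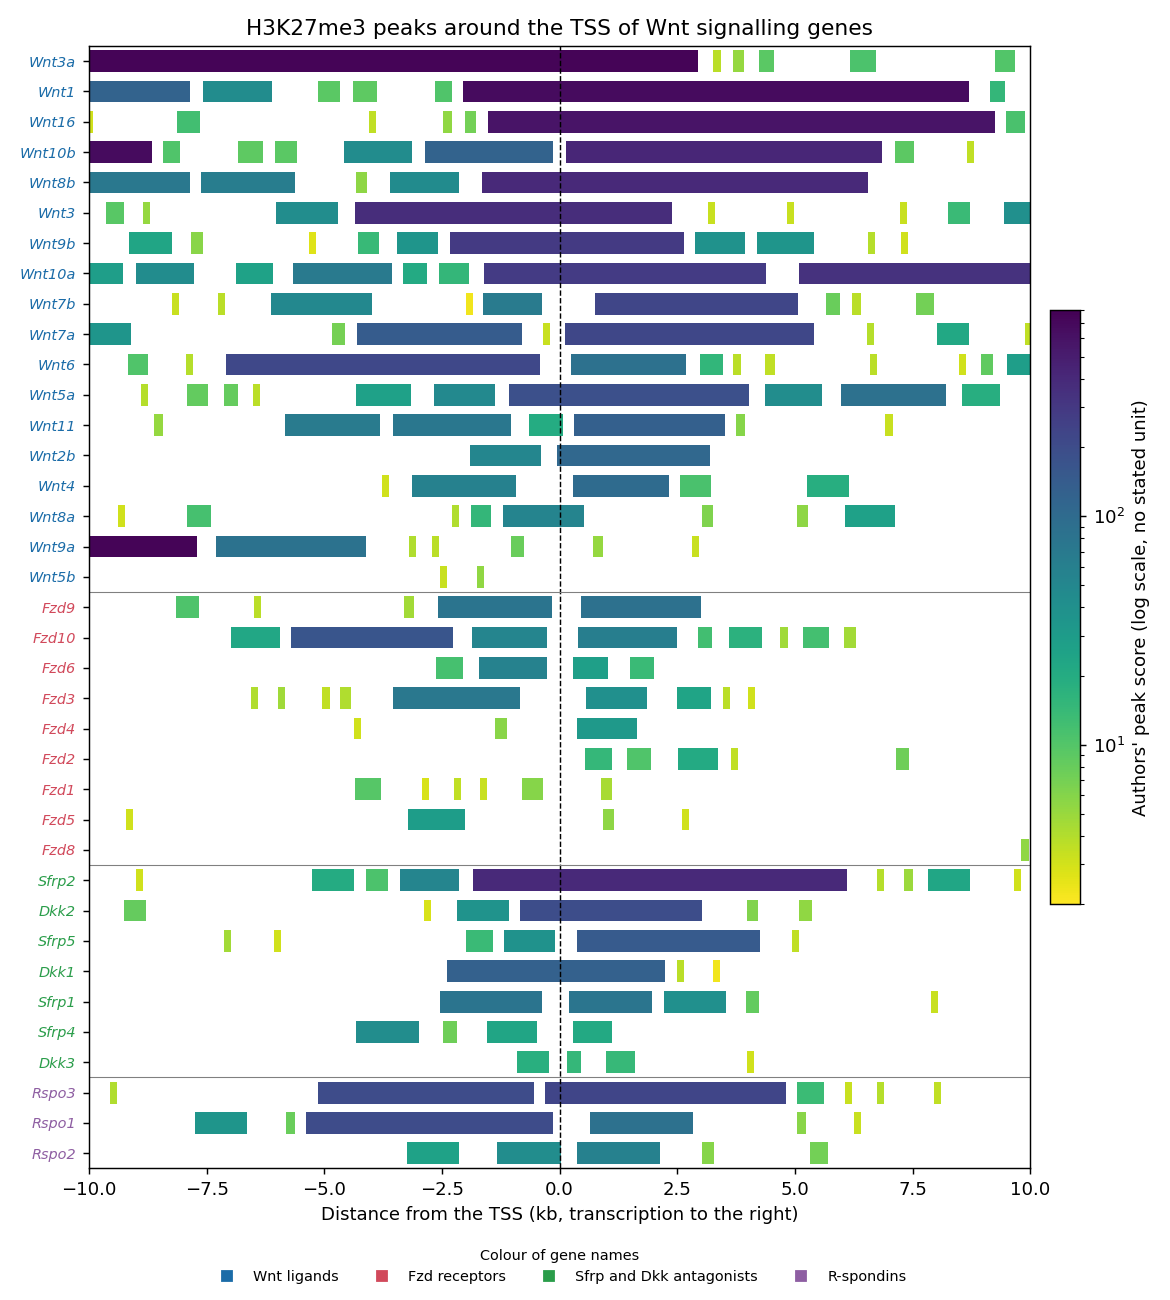
H3K27me3 peaks (bars) within 10 kb of the TSS (x axis, kb, transcription to the right) for the 37 members, ordered by class and score, with bar colour giving the authors' peak score on a log scale. For Dkk1 the first place of its transcript is drawn, and for Fzd8 its own peak alone. Long dark peaks cross the dashed TSS line at ligands such as Wnt3a and Wnt1, and no peak crosses it at any Fzd receptor.

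Frizzled receptors carried shorter peaks, and their TSS lay outside every peak. Fzd9 had the highest score, 87.7 (79.5 to 96.4), from a peak of 2551 bp over its single exon (chromosome 12, 26471737 to 26474288), with another of 2438 bp and 79.0 upstream. Fzd10 had 63.5 (56.6 to 71.0, 2106 bp, chromosome 12, 33680845 to 33682951) and 52.2 on the other side of the TSS. Fzd6, which orients hairs as part of planar cell polarity, had 56.3 (49.8 to 63.4, 1441 bp, chromosome 7, 78349795 to 78351236) and 27.8. Fzd3, a polarity and axon guidance receptor, had 40.6 (1295 bp), Fzd4, the receptor for norrin in retinal vessels, 32.2 (1292 bp), and Fzd2 had 14.9 (567 bp). Fzd1 (5.98, 448 bp) and Fzd5 (5.57, 237 bp) had the lowest scores of all 35 members with a promoter peak. Fzd8 was named by a single peak (188 bp, score 5.36), centred 9886 bp from its TSS (chromosome 17, 64045676 to 64045864). None of the receptors was in the top 25% by score, and Fzd4, Fzd2, Fzd1 and Fzd5 were below the median of 40.6, which Fzd3 equalled.

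At Fzd10, Fzd5 and Fzd2, which had promoter peaks, the highest peak lay outside the promoter reach but within 20 kb. At Fzd10 it was 3448 bp wide and scored 166.7, centred 3982 bp upstream. Fzd5 had one of 3394 bp and 92.2, centred 11871 bp upstream, and Fzd2 had one of 847 bp and 21.2, centred 2943 bp downstream. Each of these exceeded the promoter peak of the same gene. At Fzd1 the highest peak, with 15.5, was 283740 bp upstream. A peak of 2703 bp and 72.2 that is assigned to Fbxo16 also ended 833 bp upstream of the Fzd3 TSS.

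The antagonists ranged from domains like those of the ligands to weak peaks. Sfrp2, which binds Wnt ligands outside the cell, scored 397.3 (380 to 415) over 7951 bp of chromosome 2 (202134395 to 202142346), with the centre in intron 1 of 2. Dkk2 had 3869 bp (chromosome 2, 255688737 to 255692606) and 199.5 (187 to 212). Sfrp5 had 3898 bp (chromosome 1, 268894783 to 268898681) and 145.4 (135 to 157). Dkk1, the best studied blocker of Lrp5 and Lrp6, was annotated at 2 places on chromosome 1 of rn5, both with the same transcript. They are therefore not shown to be alternative promoters. The TSS of the first place lay under a peak of 4624 bp and 127.1, that of the other under a peak of 3846 bp and 96.1. Sfrp1 had 79.8 (2159 bp), Sfrp4 had 23.5 (1075 bp) and Dkk3, a divergent member of the Dkk family, had 18.4 (665 bp). In the top 25% by score were 4 of the 7, and Sfrp4 and Dkk3 were below the median.

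The R-spondins, which amplify Wnt signalling, were marked about as broadly as the ligands. Rspo3 scored 235.6 (222 to 249.6) over 5122 bp at the start of the gene (chromosome 1, 32115526 to 32120648, centre in intron 1 of 4), next to a peak of 4570 bp and 204 upstream. Rspo1 had 5246 bp upstream of its TSS (chromosome 5, 146749702 to 146754948) with 205.4 (193 to 219), and 2181 bp with 86.6 downstream. Rspo2, a limb and lung R-spondin, was lower, with 58.8 (1762 bp) and 43.3 (1349 bp).

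Where the peaks stood relative to the TSS also differed between classes. A peak contained the TSS in 11 of 17 ligands, 3 of 7 antagonists, 2 of 3 R-spondins and 0 of 8 receptors, against 35.9% of all genes with a promoter peak. The TSS lay in a gap between promoter peaks on both sides in 6 ligands, 4 receptors, 4 antagonists and 1 R-spondin, against 28.6% of all genes. The other 4 receptors, Fzd2, Fzd3, Fzd4 and Fzd5, had a promoter peak downstream only. Only peaks assigned to the gene count here, which leaves out the Fbxo16 peak that ended 833 bp upstream of the Fzd3 TSS. The 15 gaps had a median length of 654 bp (264 to 1462 bp), and those of all such genes 665 bp. The shortest was at Wnt10b and the longest at Wnt9a. This grouping by TSS was chosen after the peaks had been seen. Receptor peaks were narrow, and of the 2 receptors with a promoter peak of at least 2000 bp, Fzd9 and Fzd10, both had the gap. Among the 15 ligands with peaks that wide 5 had the gap, against 25.6% of all genes with such a peak. The highest peak was centred downstream of the TSS in 12 of 17 ligands, 6 of 8 receptors, 3 of 7 antagonists and 2 of 3 R-spondins, against 56.6% of all genes with a promoter peak.

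**Figure D3:**
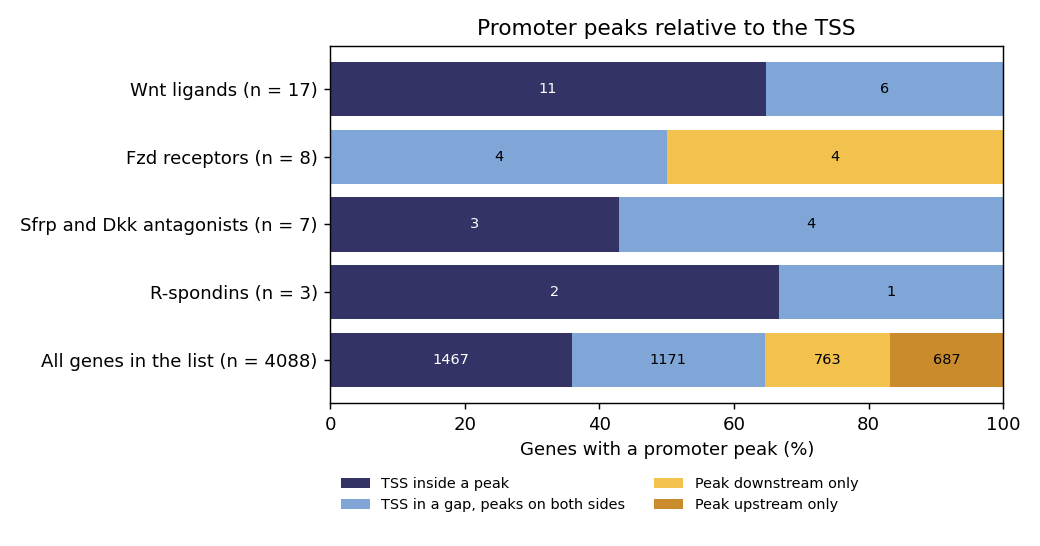
Share of genes with a promoter peak (x axis, %) by where the peaks stood relative to the TSS. Each class and all 4088 genes are shown, with the number of genes written in the bars. Only peaks assigned to the gene count. The receptor bar has no part with the TSS inside a peak, and the ligand bar has 11 of 17.

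Vertebrate Wnt genes lie partly in tandem, and 4 pairs of ligands stood within 200 kb of each other. In 3 of the pairs both genes were marked to a like degree. Wnt10b and Wnt1, whose start sites are 10708 bp apart and point away from each other, had 425.1 and 663.6, and peaks covered 71.0% of the sequence between the start sites. Wnt6 and Wnt10a, 20039 bp apart and pointing the same way, had 216.8 and 285.3 with 59.8% covered. Wnt9b and Wnt3, 22832 bp apart and pointing away from each other, had 288 and 377.3 with 52.0% covered.

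The remaining pair was unequal. Wnt3a and Wnt9a point away from each other with 20434 bp between their start sites, of which 80.7% was covered, mostly by the Wnt3a peak. The scores were 763.4 at Wnt3a and 7.84 (5.55 to 10.8) at Wnt9a, a ratio of 97.4, where the other pairs had ratios of 1.31, 1.32 and 1.56. A second peak, of 3190 bp and 84.2, followed the Wnt3a domain and ended 4112 bp before the Wnt9a TSS. It is assigned to Wnt9a and is the highest peak of that gene. It lay outside the promoter reach of 1000 bp but inside the alternative reach of 5000 bp, so the ratio of 97.4 holds for the main reach only. The promoter peaks of Wnt9a were 263 bp and 213 bp wide, on either side of a gap of 1462 bp. Both of the Wnt3a and Wnt9a promoter windows printed above are rich in CpG.

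**Figure D4:**
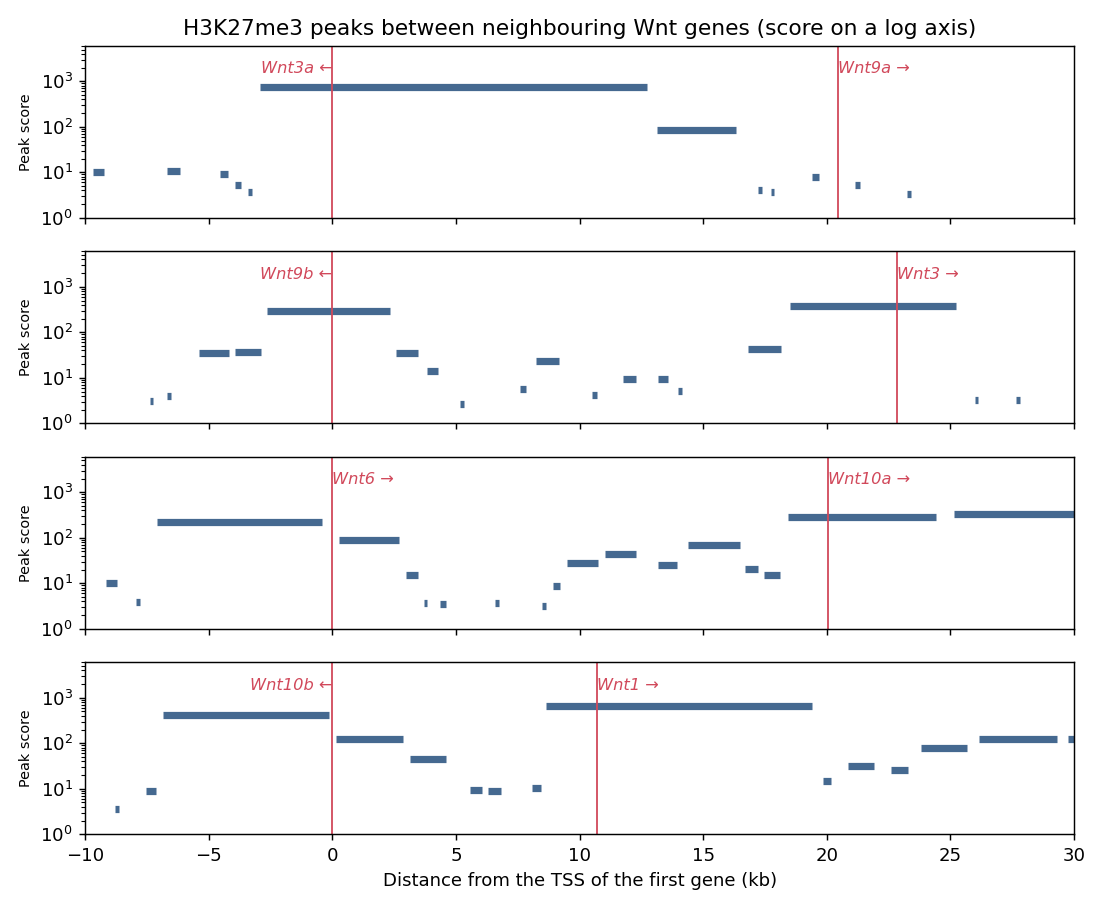
H3K27me3 peaks (horizontal bars, height giving the authors' score on a log axis) around 4 pairs of neighbouring Wnt genes, by distance from the TSS of the first gene (x axis, kb). Red lines mark the start sites and arrows the direction of transcription. High peaks lie at or beside both start sites in 3 pairs, while at Wnt9a the nearest peaks score 7.84 and 5.16.

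In the rest of the pathway, the share of genes with a promoter peak varied by role, and the roles were not tested against each other. Of 66 other pathway genes in 6 roles, 31 had a promoter peak, and peaks named 52 of them. Other antagonists and feedback regulators had 12 of 18, with a median score of 86.5, led by Sost (371.7), an antagonist made by bone cells, the Dkk co-factor Kremen2 (291.9) and the Wnt-binding protein Wif1 (217.8). Planar cell polarity genes had 6 of 7 with a median score of 43.9, led by Celsr3 (202.6), Prickle1 (126.9) and Celsr2 (49.3). Co-receptors and alternative receptors had 4 of 8, Ror2 (53.0), Ptk7 (30.5), Ror1 (28.7) and Tspan12 (15.9), with peaks of 590 to 2149 bp, within the range of the Fzd genes, and Lrp5 and Lrp6 had none. Secretion and agonist genes had 4 of 6, with Lgr5, an R-spondin receptor of stem cells, at 102.3, and Wls (13.6) and Porcn (4.13), which every Wnt-secreting cell needs, far below.

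In the signal transduction role 1 of 15 genes had a promoter peak, Axin2 with 3.51 over 208 bp. Ctnnb1, which encodes beta-catenin, Apc and Gsk3b had none, and peaks named 10 of the 15. Nuclear factors had 4 of 12, and a single one of them carried a broad domain. Lef1, a partner of beta-catenin at target genes, scored 964.3 over 12550 bp, above every ligand, followed by Pygo1 (41.0) and Tcf7l1 (5.16). Tcf7l2 had none. These counts are of all genes in a role, named by a peak or not, and the share of protein-coding genes with a promoter peak was 17.2%.

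**Figure D5:**
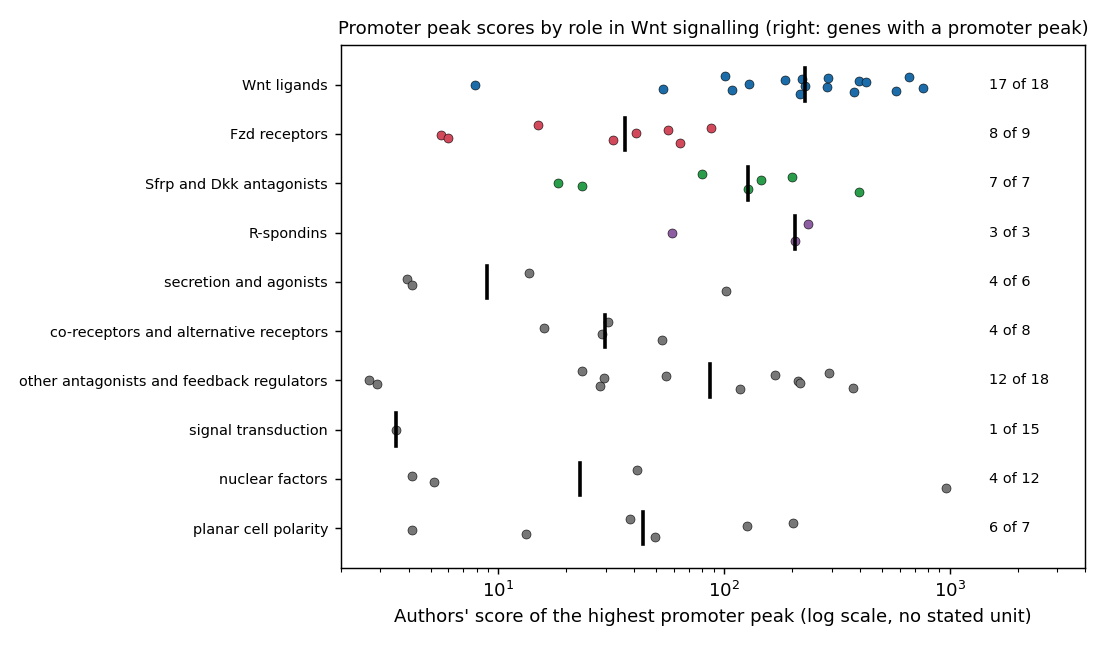
Authors' score of the highest promoter peak (x axis, log scale, no stated unit) for each gene with one, by role (y axis), with the median as a black bar and the number of genes with a promoter peak of all genes in the role at the right. Ligands, R-spondins and antagonists reach above 200, the signal transduction role has 1 gene at 3.51, and Lef1 stands alone at 964.3 among nuclear factors.

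The Fgf genes and the BMP and GDF genes were set beside the Wnt ligands. Both sets were taken by gene symbol alone, so not every gene in them need encode a secreted ligand. Of 21 Fgf genes named in the list 17 had a promoter peak, with a median width of 2919 bp and a median score of 129.5. Of 18 BMP and GDF genes 13 had one, with 3020 bp and 103.5. The Wnt ligands, at 5291 bp and 229, had higher medians than both, and the ranges of scores overlapped, with Fgf genes from 3.09 to 511.3 and BMP and GDF genes from 7.84 to 672.2.

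The nerve's own genes gave the contrast within the same list. Among Schwann cell markers, Erbb3 had a promoter peak with a score of 117.2, Sox10 had one of the smallest width with 4.13, and Pmp22 and Mag had none, while 6 of 6 neuronal genes had one, with scores from 44.3 to 960.8. These are levels of a histone mark and not of RNA, so they do not measure which cells were present.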

How the data were processed

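H3K27me3 was measured by MNase-ChIP sequencing in sham-operated rat sciatic nerve, with 2 H3K27me3 libraries and 2 input libraries. The submitters' processing notes name CASAVA 1.8.2, Bowtie and HOMER, and per the file headers the combined peaks were annotated with HOMER against rn5. How peaks were called, whether the input entered, and how replicates were combined is not given in the sources used here. Scores were deposited by the authors with no scale stated, and widths, coordinates and signed distances to the nearest TSS were deposited by the authors in bp. The depth of each library is unknown. Of the scores under 10, 100% were whole multiples of 0.2063 within 0.005.

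Members, their classes and the pathway lists were chosen with earlier results of these data known. A promoter peak has a distance of no more than its width divided by 2 plus 1000 bp. Peaks just inside this reach ended 986.5 bp (Dkk3), 931.5 bp (Wnt4) and 927.5 bp (Fzd5) from the TSS, and those just outside 1033 bp (Wnt11), 1066 bp (Dkk2) and 1127 bp (Fzd4). TSS positions and strands were derived from the distances of several peaks per gene, which worked for 36 members (not Fzd8). Of the 10647 names 10577 matched the RefSeq gene table of GRCr8 by identifier or symbol, which was used for names and chromosomes, and promoter sequences are RefSeq's on GRCr8. Named in full were the 4 ligands, 3 receptors, 3 antagonists and 2 R-spondins with the highest scores, members without a promoter peak, neighbouring pairs and the 3 highest genes of each other role. The alternatives changed the reach, the score or width minimum, the annotation class, the denominator and the merging of peaks. Python 3.11.15, pandas 2.3.3, NumPy 2.4.6 and SciPy 1.17.1 were used, and the code was tested on simulated peaks.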

Additional observations from a re-analysis of the deposited data

How the results depend on the processing

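No paired analysis was possible because the deposited list pools the replicates, and for the same reason no replicate could be left out. Of 43 alternative values 30 were within 1.5 times the main count or within the counting interval of the main median. That interval is the Poisson interval of a single score of that size. It served as a yardstick only and does not measure the spread of a class median over its genes. Counting only peaks that contain the TSS left 11 ligands, 0 receptors and 3 antagonists, and the median scores became 288 for ligands and 199.5 for antagonists, with none for receptors. Counting only peaks centred in the authors' promoter-TSS class left 6 ligands, 2 receptors, 3 antagonists and 1 R-spondin. Peaks of at least 2000 bp left 2 receptors. Merging peaks within 5000 bp raised the median scores to 745.7 for ligands, 85.7 for receptors and 208 for antagonists. By construction a merged domain is counted for both genes of a neighbouring pair, and after merging Wnt9a shared a domain score of 1567 with Wnt3a. The order of the 3 medians, ligands above antagonists above receptors, was the same in every setting that gave all of them. Scores of the smallest peaks rest on few tags under the assumption above, so Fzd1, Fzd5 and Wnt9a cannot be ranked among themselves.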

Other observations

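Some of the H3K27me3 assigned to Wnt genes lay in the gene body or beyond it, away from the promoter, and enters no count of promoter peaks above. Genes are named here after their values were seen. Wnt3a had a second domain of 7975 bp with a score of 370.7 in intron 2 of 3, centred 21862 bp downstream of its TSS and on a CpG island in the authors' annotation. Wnt3 had a peak of 4665 bp and 200.9 in intron 1 of 4, centred 22215 bp downstream and also on a CpG island, followed by 2883 bp with 96.9 at exon 2 of 5 and 2015 bp with 113 at exon 3 of 5. At Wnt10a the highest peak was not the promoter peak but a neighbour of 7099 bp with 339.7 in intron 3 of 4, and another of 4841 bp and 234.9 lay past the gene, in sequence the authors call intergenic.

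The number of peaks assigned to a member ranged from 1 at Fzd8 to 55 at Wnt5a, with 48 at Wnt7a and 36 at Sfrp2, against a median of 7 over all named genes. These counts depend on how far away the next annotated TSS is and are not a measure of the mark at the gene.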
